A study of Mus musculus with 18 samples.

Results

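Expression of 34 genes that encode adhesion proteins of the neuronal surface was followed in the hippocampus of mice exposed to intermittent hypoxia treatment (IHT) or reared for 12 months. The genes were taken by symbol, and the Affymetrix probe set of highest mean signal stood for each gene. A probe set annotated to a single gene was found for 33 of the 34 genes, the exception being Cadm2. Cntnap1 lay below the mean signal of 20 that was required over all arrays, and the remaining 32 genes were tested together with all 11656 genes that passed the same minimum. The 34 genes had 104 probe sets, of which 80 passed, and 26 of the genes had at least 2 that passed.

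The hippocampi came from male C57Bl/6 mice (C57BL/6J in the methods), with 3 arrays in each of 6 groups and 18 arrays in all. The 12 m group had been reared for 12 months without IHT. IH28D mice had received IHT, which lowers the inspired oxygen in short cycles, for 8 h a day on 28 days, and Ctrl28 mice had been kept in normoxia for 28 days. IH5D mice had received IHT on 5 days, IH5DR2 mice had received the same 5 days followed by 64 h of normoxia, labelled as 2 days, and Ctrl mice had received none. The mice of all groups but 12 m were 10 weeks old at the start. IH5D and IH28D mice were killed straight after the last session and IH5DR2 mice in the morning, whereas the hour is not given for the other groups. The labels do not say whether each array held RNA of a separate mouse, and the p-values therefore describe only how far these arrays scattered. In whole hippocampus, fewer cells of a type and less RNA per cell cannot be told apart.

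These proteins hold the membranes of neurons to each other and take part in axon growth, in the formation of nodes on myelinated axons and in the alignment of both sides of the synapse. Presynaptic neurexins and receptor phosphatases bind partners across the synaptic cleft, among them neuroligins, leucine-rich repeat proteins and Il1rapl1. Many of the genes are known for very large introns. The RefSeq annotation of GRCm38.p6 shows this for a part of the list only. The genomic span of the 32 genes tested ran between 6.022 kb for Lrrtm2 and 2271 kb for Ptprd, with a median of 377.9 kb, against 25.16 kb over all genes. There were 15 genes over 500 kb and 8 under 100 kb, namely Ptprs, Cadm3, Cntn2, Lrrtm1, L1cam, Nlgn3, Nlgn2 and Lrrtm2, so that the word long does not describe them all.

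The median signal of an array was 18.1 to 24.3. In Ctrl it was 19.3 to 20.1, below every array of 12 m (21.4 to 24.3) and of the IHT groups. The IHT arrays had 20.6 to 22.0 in IH5D, 20.4 to 21.3 in IH5DR2 and 20.4 to 23.2 in IH28D. Ctrl28 arrays had 18.1 to 21.3. Neuron markers (8 of 8 tested) had mean log2 signals of 11.1 to 11.5 on all arrays. Array 3 of 12 m stood apart in its tissue. Its 5 markers of dentate granule cells averaged 3.66 on the log2 scale, against 6.83 to 7.39 on all other arrays, and its 6 markers of pyramidal neurons averaged 6.63, against 8.10 to 8.75. Its 4 markers of neocortex averaged 9.36, against 7.08 to 7.69. Array 1 of Ctrl28 stood apart in its RNA: the log2 gap between 3′ and 5′ control probe sets was 2.39, compared with 0.82 and 0.97 on the other Ctrl28 arrays, 0.62 to 0.86 in 12 m and 0.33 to 0.53 elsewhere. The 8 markers of choroid plexus averaged 4.58 to 5.37 in 12 m, 9.03 to 9.48 in Ctrl28, 5.83 to 9.48 in Ctrl and 5.77 to 9.39 in the IHT groups. Results for the adhesion genes that rest on either array are given with and without it. Counts of called genes with an array left out are of adhesion genes only. The share of all genes in those fits is not given beside them, so a changed count cannot be read as particular to the adhesion genes.

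**Figure D1:**
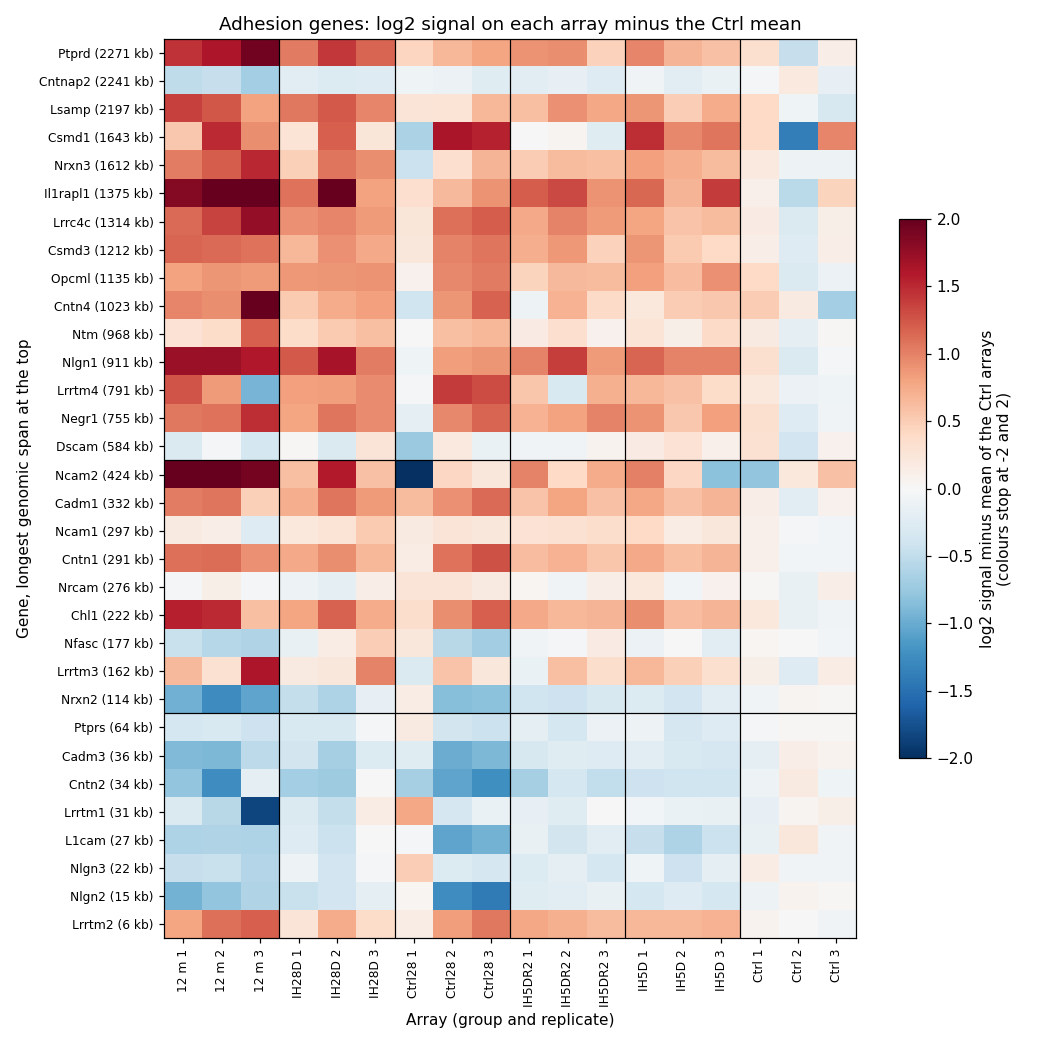
Heat map of the log2 signal of the 32 genes (rows, longest genomic span at the top, lines at 500 kb and 100 kb) on each of the 18 arrays (columns, by group), as the difference from the mean of the 3 Ctrl arrays. Most genes over 500 kb are red in the 12 m and IHT columns, most genes under 100 kb are blue in 12 m and in arrays 2 and 3 of Ctrl28, and Cntnap2 (blue), Dscam (pale) and Lrrtm2 (red) differ from their neighbours.

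The most extreme levels were found in the 12 m and the Ctrl arrays. Of the 32 genes, 15 had their highest group mean in 12 m and 18 their lowest in Ctrl, whereas 8 were highest in Ctrl and 7 lowest in 12 m. The same count was not made over all genes, so it cannot be read as particular to the adhesion genes. The comparisons with Ctrl below all share the same 3 Ctrl arrays and are therefore not independent of each other.

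In the 12 m hippocampus, 17 of the 32 adhesion genes rose and 10 fell relative to Ctrl. Among genes above the minimum signal in Ctrl the rises were led by Nlgn1 and Ptprd, and the falls by Nrxn2, Lrrtm1 and Nlgn2. The fitted changes of Ncam2 and Il1rapl1 were larger still, but their Ctrl signals averaged 16.1 and 15.5, under the minimum of 20, so that the size of these changes is uncertain. Over all genes, 53.3% passed in this comparison, 21.7% upward and 31.6% downward, in limma at an adjusted p under 0.05. The median log2 change was 0.85 for the adhesion genes and -0.23 for all genes. Without array 3 of 12 m, 15 rose and 6 fell. Choroid plexus markers were lower in 12 m than in Ctrl in 6 of 8 and pyramidal markers in 5 of 6 by the same test. Microglia markers fell in 5 of 8 and rose in 1, oligodendrocyte markers fell in 4 of 7 and rose in 2, and dentate granule cell markers fell in 2 of 5. The part of these cell types in the changes of the adhesion genes was not tested.

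After IHT for 5 days, 7 of the 32 genes rose relative to Ctrl and none fell: Nlgn1, Opcml, Ptprd, Lsamp, Cadm1, Cntn1 and Lrrtm2. This compares with 6.52% of all genes that passed, 5.4% higher and 1.12% lower, and the medians were 0.45 for the adhesion genes and -0.09 for all genes. At an unadjusted p under 0.05, 14 of the 32 were higher (43.8%, against 16.2% of all genes) and 1 lower (3.12%, against 12.7%). The replicate numbers paired IH5D and Ctrl arrays (correlations of 0.15, 0.29 and 0.24), and with the number as a block 4 genes rose. These calls were close to the threshold. The count was 0 without array 2 or 3 of Ctrl or without array 1 or 3 of IH5D, 2 without array 2 of IH5D, 11 without array 1 of Ctrl or array 3 of Ctrl28, and 15 without array 1 of Ctrl28, which enters through the shared estimate of the spread. Of those 15, 13 were higher and 2 were lower, Nlgn2 and L1cam.

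After 64 h of recovery, IH5DR2 hippocampi still differed from Ctrl in 7 adhesion genes, all higher: Il1rapl1, Nlgn1, Lrrc4c, Ptprd, Lsamp, Lrrtm2 and Cadm1. Of all genes 5.61% passed, 4.38% higher and 1.24% lower (510 and 144 genes, and 403 and 193 after median centring of the arrays). The count of adhesion genes was 0 without array 2 or 3 of Ctrl or without any of the IH5DR2 arrays, 11 without array 1 of Ctrl and 14 without array 1 of Ctrl28, 13 of them higher and 1 (Nrxn2) lower. Set against IH5D directly, no adhesion gene passed in IH5DR2, and 0% of all genes did. At an unadjusted p under 0.05 limma gave 1 of 32 adhesion genes (3.12%, against 3.59% of all genes), and the test that the methods name gave 3 (against 6.01% of all genes). The median log2 change of IH5DR2 against IH5D was -0.03, and for Nlgn1 it was 0.04 ± 0.23 (SE).

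After IHT for 28 days, Nlgn1 and Lsamp rose relative to Ctrl28 and no adhesion gene fell. Here 8.49% of all genes passed, 6.05% higher and 2.45% lower (705 and 285 genes, and 492 and 497 after median centring). The median was 0.13 for the adhesion genes and 0.02 for all genes. Without array 1 of Ctrl28, 8 genes passed in limma. Of these, 6 were higher (Nlgn2, Nfasc, L1cam, Lsamp, Cadm3 and Nrxn2) and 2 were lower (Lrrtm2 and Cntn1), and Nlgn1 was not among them. Without array 2 or 3 of IH28D none passed. Relative to Ctrl, 13 genes were higher in IH28D and none lower, where 33.3% of all genes passed, 17.5% higher and 15.8% lower. These 13 were Il1rapl1, Nlgn1, Ptprd, Lsamp, Negr1, Lrrc4c, Chl1, Opcml, Cadm1, Nrxn3, Cntn1, Csmd3 and Ncam1. This comparison also takes in the 28 days of rearing, for which Ctrl28 was the control. Of the 13, Ptprd, Lrrc4c, Chl1, Opcml, Cadm1, Cntn1 and Csmd3 also rose in Ctrl28 against Ctrl, without IHT.

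The controls themselves differed. In Ctrl28, 8 adhesion genes were higher than in Ctrl and 5 were lower, where 37.8% of all genes passed, 16.9% higher and 21% lower. This count was 22 without array 1 of Ctrl28, 7 without array 2 and 6 without array 3. Those higher were Cadm1, Lrrc4c, Cntn1, Chl1, Csmd3, Opcml, Lrrtm2 and Ptprd, and those lower Cntn2, Nlgn2, Cadm3, L1cam and Nrxn2. Relative to Ctrl28, Ncam2, Il1rapl1, Nlgn1, Nrxn3, Ptprd and Lsamp (6 genes) rose in 12 m and Lrrtm1, Nrxn2 and Cntnap2 (3 genes) fell, where 16.3% of all genes passed, 8.04% higher and 8.3% lower. Without array 3 of 12 m, 7 rose and none fell in limma. All 8 choroid plexus markers were lower in 12 m than in Ctrl28 by the same test, and microglia markers were higher in 3 of 8. In Ctrl28 against Ctrl, microglia markers fell in 4 of 8 and pyramidal markers in 3 of 6, with 1 pyramidal marker higher. The part of these cell types was not tested. The Ctrl28 arrays carry later record numbers than the other arrays, so that a batch and the group cannot be told apart.

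The change after 28 days differed from that after 5 days in 2 of the 32 genes, where 9.65% of all genes passed the test of the difference (IH28D against Ctrl28 minus IH5D against Ctrl), 6.57% with a positive and 3.08% with a negative difference (766 and 359 genes, and 607 and 539 after median centring). L1cam, a protein of growing axons, had signals of 493.5, 436.4 and 583.6 in IH28D, 571.3, 282.1 and 306.1 in Ctrl28, 424.9, 383.9 and 435.4 in IH5D, and 530.4, 686.7 and 557.7 in Ctrl. IH5D lay below Ctrl, while IH28D overlapped with Ctrl28 through array 1 of Ctrl28. The log2 difference was 0.955 ± 0.28 (SE; limma, adjusted p = 0.0388). Lrrtm2, a postsynaptic neurexin ligand, had signals of 93.3, 129.9 and 100.8 in IH28D, 86.0, 138.4 and 161.9 in Ctrl28, 123.2, 123.1 and 126.1 in IH5D, and 81.5, 78.4 and 74.2 in Ctrl. Here IH5D lay above Ctrl and the 28-day groups overlapped, and the log2 difference was -0.89 ± 0.27 (SE; limma, adjusted p = 0.0460). The other Lrrtm2 probe sets, of mean signals 79.3 and 21.4, were at 0.25 and -0.34 for this difference and did not pass (adjusted p over probe sets 0.852 and 0.813 in limma). Over the 18 fits that left out 1 array, 0 to 16 genes passed.

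**Figure D2:**
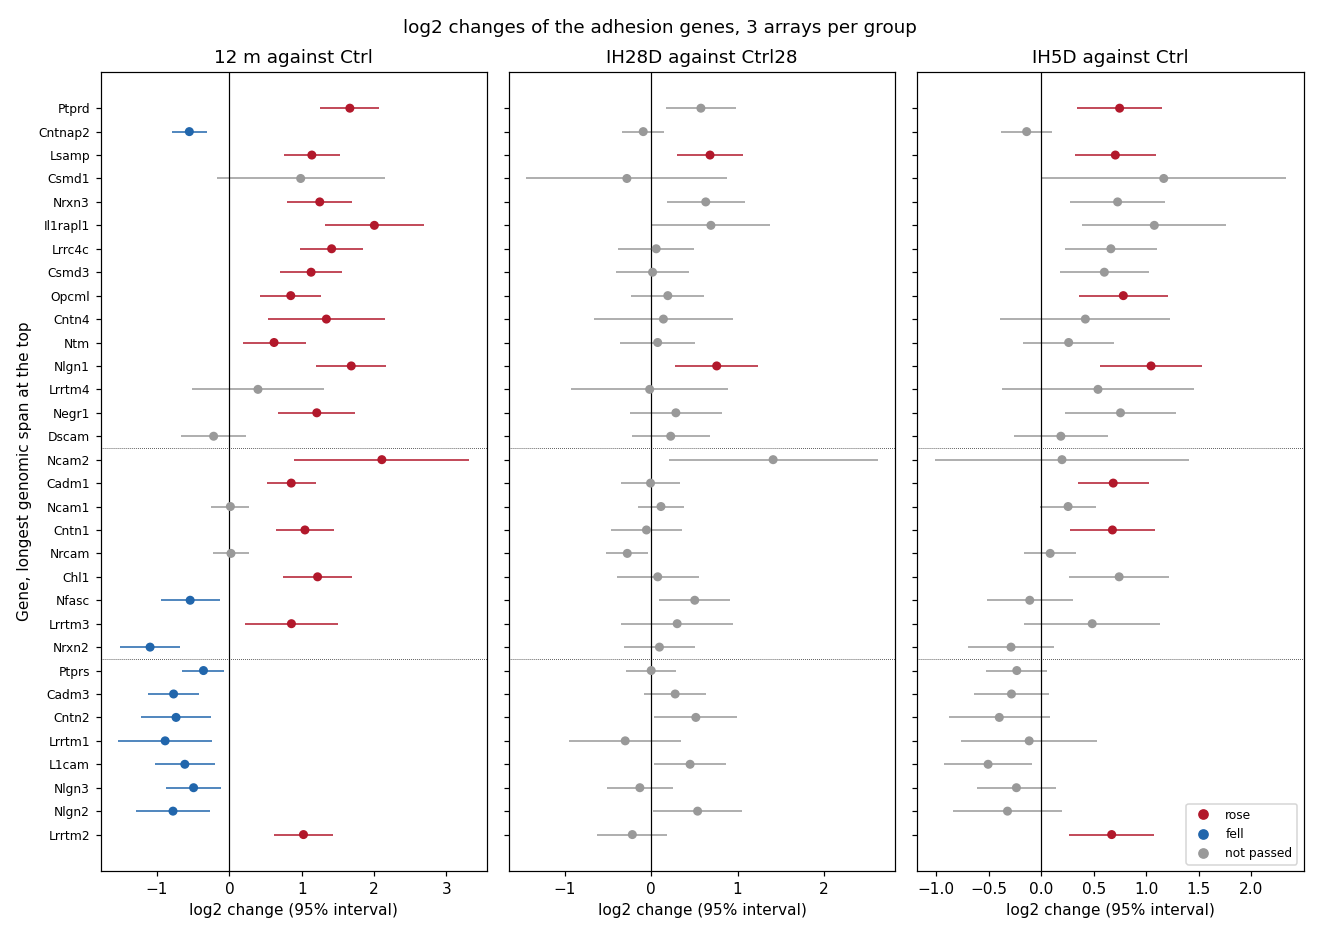
Log2 change (points) with 95% intervals (lines) of each of the 32 genes in 12 m against Ctrl, IH28D against Ctrl28 and IH5D against Ctrl, 3 arrays per group, genes ordered by genomic span with dotted lines at 500 kb and 100 kb. The 17 genes that rose and the 10 that fell in 12 m separate largely by span, and in IH28D against Ctrl28 only Lsamp and Nlgn1 are coloured.

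Among the neuroligins, the postsynaptic partners of neurexins, the family members moved in opposite directions in 12 m against Ctrl. Nlgn1, which acts at excitatory synapses, passed in every comparison with Ctrl except that of Ctrl28. Only 1 probe set of Nlgn1 was kept, so that no other could be set beside it. Its signals were 378.1, 380.5 and 346.3 in 12 m, 269.1, 357.1 and 233.2 in IH28D, 107.9, 204.0 and 210.7 in Ctrl28, 228.6, 299.8 and 207.4 in IH5DR2, 256.7, 226.7 and 226.6 in IH5D, and 142.8, 93.8 and 111.9 in Ctrl. All 12 m, IH28D, IH5DR2 and IH5D arrays therefore lay above all Ctrl arrays, with no overlap, while Ctrl28 overlapped with Ctrl through its array 1. The log2 change of Nlgn1 was 1.68 ± 0.23 (SE) in 12 m (limma, adjusted p = 3.60e-05), 1.30 ± 0.23 in IH28D (adjusted p = 0.00125), 1.08 ± 0.23 in IH5DR2 (adjusted p = 0.0220) and 1.05 ± 0.23 in IH5D (adjusted p = 0.0211), each against Ctrl. Against Ctrl28 it was 1.14 in 12 m (adjusted p = 0.00362) and 0.76 in IH28D (adjusted p = 0.0480). In limma, the Nlgn1 call of IH28D against Ctrl28 was lost in 13 of the 18 fits that left out 1 array, with an adjusted p of 0.125 and a change of 0.44 without array 1 of Ctrl28 and 0.194 and 0.59 without array 2 of IH28D. Its call in IH5D was lost without array 2 or 3 of Ctrl and array 1 or 3 of IH5D (adjusted p of 0.0615 to 0.140 in limma), and in IH5DR2 without array 2 or 3 of Ctrl or any IH5DR2 array (0.0575 to 0.141).

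Nlgn2, which acts at inhibitory synapses, went the other way in 12 m against Ctrl. It had signals of 364.4, 404.9 and 465.7 in 12 m, 725.1, 297.5 and 262.5 in Ctrl28, and 655.8, 741.5 and 715.1 in Ctrl. The 12 m arrays were all below the Ctrl arrays, and array 1 of Ctrl28 was far above the others of its group. Nlgn2 fell in 12 m by 0.78 (SE 0.25, limma adjusted p = 0.0135) and in Ctrl28 by 0.87 (SE 0.25, adjusted p = 0.0103) relative to Ctrl. Without array 1 of Ctrl28 the Ctrl28 change was -1.33 (adjusted p = 2.38e-07 in limma), and Nlgn2 was then higher in 12 m than in Ctrl28 (0.55, adjusted p = 0.00429). Its other probe set, of mean signal 29.2, was at 0.18 in 12 m against Ctrl and did not pass (adjusted p over probe sets 0.683), and the mean of both gave -0.30 (adjusted p = 0.117 in limma), so that the contrast with Nlgn1 rests on the Nlgn2 probe set of higher signal. The 12 m call of Nlgn2 was lost without array 1 of 12 m (adjusted p = 0.0502 in limma), and the Ctrl28 call without array 2 or 3 of Ctrl28 (0.0621 and 0.0749). Nlgn3, found at both kinds of synapse, changed by -0.50 in 12 m (limma, adjusted p = 0.0286), a call lost without array 1 or 3 of 12 m or array 1 of Ctrl. With all arrays, no IHT comparison passed for the probe sets that stood for Nlgn2 and Nlgn3. Without array 1 of Ctrl28, Nlgn2 was higher in IH28D than in Ctrl28 (0.995, adjusted p = 1.76e-05 in limma) and lower in IH5D than in Ctrl (-0.32, adjusted p = 0.0355). The Nlgn3 probe set of mean signal 58.2 fell by 0.54 in IH28D against Ctrl (adjusted p over probe sets 0.0429 in limma).

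The 300 bases around the annotated starts of Nlgn1 (250 before and 50 after) and of Nlgn2 are shown. These close relatives moved in opposite directions in 12 m against Ctrl, by the probe sets that stood for them. Relative to Ctrl28 both were above 0, with Nlgn2 at 0.09 in 12 m and 0.54 in IH28D, neither of which passed. The letters ACGTG and GCGTG, the core that hypoxia-inducible factors bind, were searched on both strands, and matches are in capitals. Both genes lie on the minus strand, and the windows are chr3:26153937-26154236 and chr3:26331860-26332159 for Nlgn1 and chr11:69837735-69838034 for Nlgn2, in the RefSeq annotation of GRCm38.p6.
Nlgn1 inner start: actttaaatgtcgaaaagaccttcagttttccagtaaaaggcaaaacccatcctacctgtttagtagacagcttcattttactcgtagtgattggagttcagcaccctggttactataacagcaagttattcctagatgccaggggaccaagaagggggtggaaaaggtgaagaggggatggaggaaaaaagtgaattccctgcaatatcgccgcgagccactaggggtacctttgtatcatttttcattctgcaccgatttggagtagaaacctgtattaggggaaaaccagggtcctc
Nlgn1 outer start: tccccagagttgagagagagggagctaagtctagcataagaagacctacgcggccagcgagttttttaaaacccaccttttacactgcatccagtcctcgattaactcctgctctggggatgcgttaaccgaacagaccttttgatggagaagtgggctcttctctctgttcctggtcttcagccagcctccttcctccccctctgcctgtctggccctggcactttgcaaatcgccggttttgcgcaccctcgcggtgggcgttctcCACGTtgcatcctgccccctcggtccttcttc
Nlgn2: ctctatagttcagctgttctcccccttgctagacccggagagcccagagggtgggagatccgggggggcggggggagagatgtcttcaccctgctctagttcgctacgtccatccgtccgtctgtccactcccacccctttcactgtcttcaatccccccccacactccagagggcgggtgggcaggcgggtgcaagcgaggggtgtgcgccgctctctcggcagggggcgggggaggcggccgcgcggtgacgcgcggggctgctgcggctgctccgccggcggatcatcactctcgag
The outer Nlgn1 window held 1 match, and the inner Nlgn1 window and that of Nlgn2 held 0. The Nlgn2 window was 68.7% G and C with 26 CpG sites, and the Nlgn1 windows were 44.7% and 55.7% with 6 and 14. Of the 38 windows found for 25 of the adhesion genes, 42.1% held a match, against 43.8% of 32851 mouse windows, and the median number of CpG sites was 11 and 7. A match is a description of the sequence only.

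The neurexins, presynaptic receptors that bind the neuroligins and Lrrtm proteins, showed the same kind of contrast. Nrxn3 had signals of 861.3, 980.0 and 1196 in 12 m, 313.8, 532.2 and 676.6 in Ctrl28, and 482.4, 395.0 and 394.8 in Ctrl. The 12 m arrays lay above all arrays of both controls. It rose in 12 m by 1.25 ± 0.21 (SE) relative to Ctrl (limma, adjusted p = 2.08e-04) and by 1.05 relative to Ctrl28 (adjusted p = 0.00395), and by 0.61 (adjusted p = 0.0210) without array 3 of 12 m and array 1 of Ctrl28. Nrxn2 had signals of 425.0, 344.8 and 397.6 in 12 m, 914.0, 460.1 and 467.8 in Ctrl28, and 786.4, 858.2 and 844.5 in Ctrl. It was lower on every 12 m array than on any control array. Nrxn2 fell by 1.10 in 12 m relative to Ctrl (SE 0.20, adjusted p = 2.82e-04 in limma), a call kept in all 18 fits that left out 1 array. Relative to Ctrl28 its change in 12 m was -0.585 (adjusted p = 0.0489), and without array 1 of Ctrl28 it was -0.26 (adjusted p = 0.160 in limma). That call was lost in 15 of the 18 fits. Nrxn2 in IH28D was at -0.42 relative to Ctrl and did not pass (adjusted p = 0.106).

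The presynaptic receptor phosphatase Ptprd rose relative to Ctrl in 12 m and in all 3 IHT groups, and its postsynaptic partner Il1rapl1 rose in 12 m, IH28D and IH5DR2. Ptprd, the gene of widest span, had signals of 1108, 1247 and 1538 in 12 m, 834.2, 1076 and 907.3 in IH28D, 543.7, 645.4 and 702.1 in Ctrl28, 757.2, 772.8 and 555.8 in IH5DR2, 798.3, 647.3 and 608.8 in IH5D, and 506.0, 295.8 and 445.1 in Ctrl. Every group lay above Ctrl without overlap. The log2 change of Ptprd relative to Ctrl was 1.67 ± 0.19 (SE) in 12 m (limma, adjusted p = 1.47e-05), 1.20 in IH28D (adjusted p = 8.54e-04), 0.76 in IH5DR2 (adjusted p = 0.0351), 0.75 in IH5D (adjusted p = 0.0340) and 0.63 in Ctrl28 (adjusted p = 0.0172). Relative to Ctrl28 it was 1.04 in 12 m (adjusted p = 0.00239) and 0.57 in IH28D, which did not pass (adjusted p = 0.0738). Its calls in IH5D and IH5DR2 were lost without array 2 or 3 of Ctrl or without any array of the treated group, and that in Ctrl28 without array 2 of Ctrl or array 2 or 3 of Ctrl28. Il1rapl1 was dim, with signals of 52.9, 64.3 and 62.6 in 12 m and 16.0, 10.2 and 20.2 in Ctrl, and rose by 2.00 ± 0.33 (adjusted p = 1.37e-04). Most of its Ctrl signals were under the minimum of 20, which leaves the size of the change uncertain. Ptprs, a phosphatase of the same family that binds proteoglycans, changed by -0.36 in 12 m (limma, adjusted p = 0.0371), and this call was lost in each of the 6 fits that left out a 12 m or Ctrl array.

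All 4 IgLON genes of the list, whose proteins are anchored in the membrane by a lipid and guide neurite growth, rose in 12 m relative to Ctrl. Lsamp, a marker of limbic neurons, had signals of 1218, 1115 and 823.7 in 12 m, 978.2, 1097 and 922.5 in IH28D, 564.2, 569.4 and 748.8 in Ctrl28, and 618.9, 445.9 and 379.0 in Ctrl. The 12 m and IH28D arrays were above all arrays of both controls, while Ctrl28 and Ctrl overlapped. Lsamp rose by 1.14 ± 0.18 (SE) in 12 m (limma, adjusted p = 1.28e-04) and by 1.08 in IH28D (adjusted p = 0.00112) relative to Ctrl, and by 0.68 in IH28D relative to Ctrl28 (adjusted p = 0.0289). The other Lsamp probe set, of mean signal 257.9, was at 0.05 in IH28D against Ctrl28, at -0.01 in IH28D against Ctrl and at -0.04 in IH5D against Ctrl, and passed in none of these (adjusted p over probe sets 0.882, 0.945 and 0.888 in limma). The Lsamp call in IH28D against Ctrl28 was lost without array 2 of Ctrl28 (adjusted p = 0.0798 in limma) and without any IH28D array (0.0595 to 0.105). Opcml had signals of 816.6, 709.1 and 866.4 in IH5D and 610.6, 378.2 and 427.4 in Ctrl. Its arrays did not overlap, and Opcml rose by 0.78 ± 0.20 in IH5D (adjusted p = 0.0340). Without array 2 of Ctrl the Opcml change in IH5D was no longer called (adjusted p = 0.194 in limma), nor without array 3 of Ctrl or any IH5D array. Negr1 changed by 1.21 in 12 m and by 0.93 in IH28D relative to Ctrl (adjusted p = 9.24e-04 and 0.0114 in limma), and the IH28D call was lost without array 2 of Ctrl or array 2 of IH28D. Ntm changed by 0.62 in 12 m (adjusted p = 0.0189). Array 3 of 12 m had a Ntm signal of 882.7, against 468.1 and 493.9 on the others, and without it the Ntm change was 0.33 (adjusted p = 0.129 in limma). Without array 2 of Ctrl it was 0.52 (adjusted p = 0.0834).

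Leucine-rich repeat proteins of the postsynaptic side were split. Lrrc4c, the netrin-G ligand, had signals of 534.5, 621.3 and 826.1 in 12 m, 290.0, 525.0 and 561.8 in Ctrl28, 413.6, 485.4 and 439.1 in IH5DR2, and 274.8, 199.0 and 265.5 in Ctrl. All these groups lay above Ctrl. Lrrc4c rose relative to Ctrl by 1.41 ± 0.21 (SE) in 12 m (limma, adjusted p = 6.76e-05), by 0.85 in Ctrl28 (adjusted p = 0.00430) and by 0.87 in IH5DR2 (adjusted p = 0.0289). The IH5DR2 call of Lrrc4c was lost without array 2 or 3 of Ctrl or without any IH5DR2 array. Lrrtm2, a neurexin ligand and the gene of smallest span here, changed by 1.02 in 12 m, 0.67 in IH5D and 0.71 in IH5DR2 relative to Ctrl (adjusted p = 4.05e-04, 0.0458 and 0.0419 in limma). The IH5D and IH5DR2 calls of Lrrtm2 were lost in most fits that left out 1 array, among them those without array 2 or 3 of Ctrl. Lrrtm1, which also binds neurexins, had signals of 718.8, 598.3 and 245.3 in 12 m, against 778.9, 904.3 and 949.9 in Ctrl. The low value was that of array 3, in which the markers of dentate and pyramidal neurons were low. Lrrtm1 fell by 0.89 in 12 m (SE 0.31, adjusted p = 0.0226), and without array 3 of 12 m the Lrrtm1 change was -0.42 (adjusted p = 0.159 in limma). It was also lost without array 2 or 3 of Ctrl (adjusted p = 0.0632 and 0.0662 in limma). Lrrtm3 passed in 12 m at 0.86 (adjusted p = 0.0264), but its signals were 96.3, 75.5 and 189.2, and without array 3 its change was 0.47 (adjusted p = 0.170 in limma). Without array 2 of Ctrl, Lrrtm3 was at 0.73 (adjusted p = 0.102). Lrrtm4, a receptor for proteoglycans, was at 0.39 and did not pass (adjusted p = 0.453), with signals of 141.5, 107.0 and 31.3 in 12 m and 68.5, 54.7 and 55.6 in Ctrl.

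Contactins are axonal proteins that pair with Cntnap proteins at nodes of Ranvier. Cntn1, a component of the paranodal junction, had signals of 1877, 1902 and 1647 in 12 m, 972.4, 1851 and 2121 in Ctrl28, and 940.7, 841.7 and 845.8 in Ctrl. Array 1 of Ctrl28 was close to Ctrl and the others of its group were not. Cntn1 rose by 1.04 ± 0.19 (SE) in 12 m (limma, adjusted p = 3.72e-04) and by 0.84 in Ctrl28 (adjusted p = 0.00295) relative to Ctrl. Cntn2, which binds Cntnap2 beside the node, had signals of 163.6, 119.5 and 251.5 in 12 m, 178.1, 136.4 and 120.6 in Ctrl28, and 265.7, 321.3 and 267.1 in Ctrl. Both groups lay below Ctrl. Cntn2 fell by 0.99 in Ctrl28 (SE 0.23, adjusted p = 0.00305) and by 0.74 in 12 m (adjusted p = 0.0127), and without array 2 of 12 m its 12 m change was -0.48 (adjusted p = 0.0886 in limma). Without array 2 of Ctrl it was -0.65 (adjusted p = 0.0575). Cntn4 changed by 1.34 in 12 m (adjusted p = 0.00787), with signals of 74.1, 71.8 and 161.8 in 12 m and 53.6, 42.3 and 23.3 in Ctrl. The highest Cntn4 signal was again that of array 3, and without it the change was 0.96 (adjusted p = 0.0504 in limma). Without array 3 of Ctrl, Cntn4 was at 0.998 (adjusted p = 0.0519).

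Synaptic Cadm proteins bind each other across the cleft. Cadm1 had signals of 1431, 1489 and 985.1 in 12 m, 1100, 1335 and 1549 in Ctrl28, and 772.7, 614.2 and 747.5 in Ctrl. It was higher on every array of both groups than on any Ctrl array. Cadm1 rose by 0.89 ± 0.16 (SE) in Ctrl28 (limma, adjusted p = 4.73e-04) and by 0.855 in 12 m (adjusted p = 4.26e-04) relative to Ctrl. The 4 kept probe sets of Cadm1 ran between -0.61 and 0.89 in Ctrl28 and between 0.36 and 0.97 in 12 m. Cadm3 had signals of 681.5, 673.9 and 872.6 in 12 m, 1063, 633.2 and 676.0 in Ctrl28, and 1094, 1375 and 1325 in Ctrl. Both groups lay below Ctrl without overlap. It fell by 0.71 in Ctrl28 (adjusted p = 0.00367) and by 0.77 in 12 m (adjusted p = 0.00133). Csmd3, a large transmembrane protein of dendrites, changed by 1.13 in 12 m and 0.78 in IH28D relative to Ctrl (adjusted p = 2.86e-04 and 0.00909 in limma), and the IH28D call of Csmd3 was lost without array 2 of Ctrl (0.0584). Csmd1, a complement regulator, was dim and scattered in Ctrl, with signals of 36.4, 10.6 and 54.3, and its leading probe set passed in no comparison. The other kept Csmd1 probe set, of lower mean signal, rose relative to Ctrl by 1.63 in IH28D and by 1.67 in 12 m. Dscam, which mediates self-avoidance of dendrites, passed in no comparison and was at -0.22 in 12 m (adjusted p = 0.400 in limma).

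In the Ncam and L1 family, which supports axon growth and fasciculation, 2 genes rose and 2 fell in 12 m relative to Ctrl. Ncam2 had a fitted change of 2.11 ± 0.58 (SE; limma, adjusted p = 0.00590), at signals of 70.0, 67.7 and 56.6 in 12 m and 8.63, 17.3 and 22.4 in Ctrl. The Ctrl signals of Ncam2 were at or near the minimum of 20, where the size of a change is uncertain. Chl1, the close homologue of L1, had signals of 1427, 1365 and 739.7 in 12 m and 563.1, 437.9 and 463.1 in Ctrl. It rose by 1.22 (adjusted p = 3.75e-04), and its lowest 12 m value was that of array 3. L1cam was steady within 12 m at 383.4, 385.4 and 381.7, against 530.4, 686.7 and 557.7 in Ctrl. It changed by -0.62 (adjusted p = 0.0150 in limma), and without array 2 of Ctrl by -0.50 (adjusted p = 0.0765). Nfasc, a protein of the node, changed by -0.54 (adjusted p = 0.0266 in limma), a call lost in 4 of the 6 fits without a 12 m or Ctrl array. Ncam1 and Nrcam were at 0.01 and 0.02 in 12 m and did not pass (adjusted p = 0.932 and 0.883 in limma).

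Directions followed genomic span within the list. In 12 m against Ctrl, 11 of the 15 genes over 500 kb rose and 1 (Cntnap2) fell, 13 were above 0, with a median log2 change of 1.14. Of the 9 genes of 100 to 500 kb, 5 rose and 2 fell, with a median of 0.86. Of the 8 genes under 100 kb, 1 (Lrrtm2) rose and 7 fell, with a median of -0.68. Without array 3 of 12 m, 10 rose and 1 fell over 500 kb, with a median of 1.07. In the same fit 4 rose and 1 fell at 100 to 500 kb (median 0.47), and 1 rose and 4 fell under 100 kb (median -0.53). With all arrays, all genes showed an order of the same direction. Their medians were 0.66 over 500 kb (57.6% rose and 5.23% fell of 172), 0.17 for 100 to 500 kb and -0.29 under 100 kb. Across the 32 genes, Spearman's rho of span and change was 0.61, against 0.38 over all genes, as a description across genes, which share arrays and are not independent replicates. In IH5D against Ctrl the medians were 0.71, 0.26 and -0.26 for the spans over 500 kb, 100 to 500 kb and under 100 kb. In IH28D against Ctrl they were 0.87, 0.47 and -0.22. Over all genes the medians were 0.41, 0.15 and -0.135 in IH5D, and 0.49, 0.22 and -0.185 in IH28D. Ctrl28 against Ctrl, without IHT, had the same order, at 0.62, 0.22 and -0.44 (all genes 0.50, 0.23 and -0.13). These comparisons share the Ctrl arrays.

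With Ctrl28 as the control the order was weaker. The medians of IH28D against Ctrl28 were 0.19, 0.09 and 0.14 for the spans over 500 kb, 100 to 500 kb and under 100 kb, and without array 1 of Ctrl28 the genes over 500 kb had a median of -0.11, with 5 of 15 above 0. In 12 m against Ctrl28 the medians were 0.56, -0.04 and 0.00, and without array 3 of 12 m and array 1 of Ctrl28 the genes over 500 kb were at 0.01. The order was weaker over all genes too. Their medians, in the same order of spans and with all arrays, were 0.02, 0.05 and 0.01 in IH28D against Ctrl28. In 12 m against Ctrl28 the medians of all genes were 0.17, 0.05 and -0.04. Array 1 of Ctrl28 had the widest gap between 3′ and 5′ signals, and the part of RNA quality in the order by span was not tested beyond leaving that array out.

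**Figure D3:**
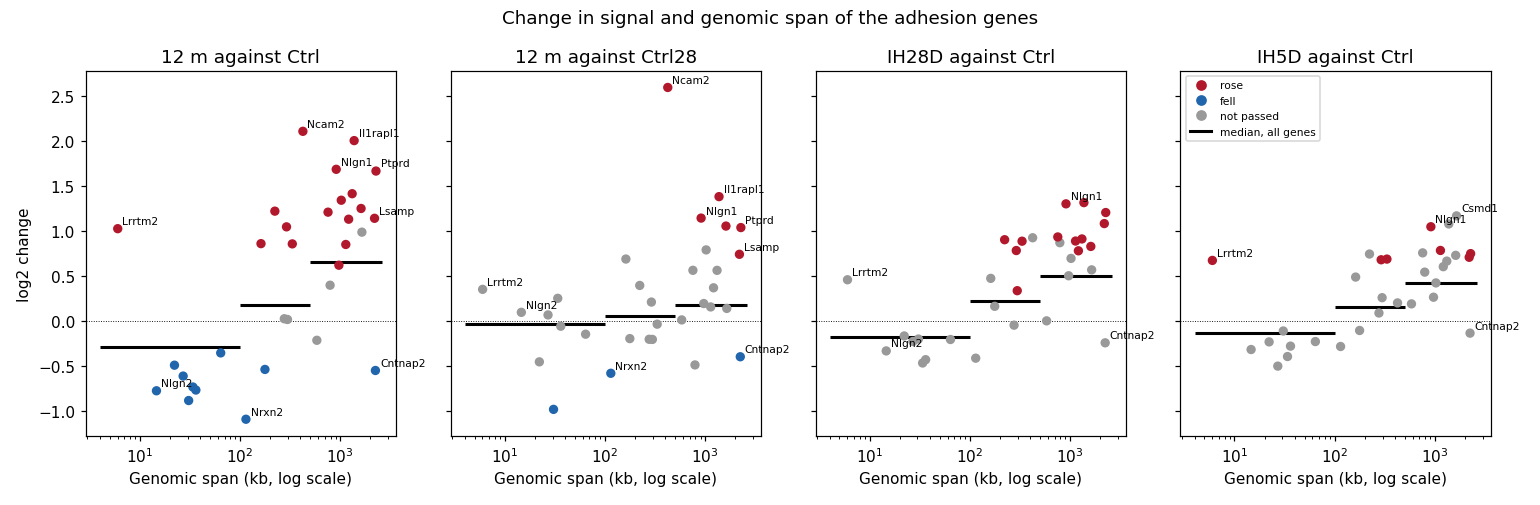
Log2 change of each of the 32 genes against its genomic span (log axis, kb) in 12 m against Ctrl, 12 m against Ctrl28, IH28D against Ctrl and IH5D against Ctrl, with horizontal bars at the median change of all genes in each span class. In 12 m against Ctrl the genes over 500 kb sit around 1.14 and those under 100 kb around -0.68, and Cntnap2 and Dscam (below 0) and Lrrtm2 (above 0) go against their span class.

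The other probe sets of a gene did not always follow the probe set that stood for it. In 12 m against Ctrl, the changes of the probe sets of a gene spanned a median of 0.68 on the log2 scale over the 26 genes with at least 2, against 0.40 over 5129 genes. In 11 of the 26 genes they had both signs, and in 3 genes they passed in opposite directions. Of the 48 other probe sets, 24 rose and 7 fell, where 23.6% and 25.6% of all probe sets did. In IH5D against Ctrl, 12 of the 26 genes had both signs, with a median range of 0.50 (0.28 over all genes). There 6 of the 48 rose, where 4.72% of all probe sets did. In IH28D against Ctrl28, 14 of the 26 had both signs, with a median range of 0.57 (0.48 over all genes). There 0 of the 48 rose, where 5.84% of all probe sets did. Ptprd was uniform in 12 m against Ctrl, since its 5 probe sets rose by 1.06 to 2.16. The 3 probe sets of Lrrtm2 all rose in 12 m against Ctrl as well, by 1.02, 2.08 and 2.15.

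**Figure D4:**
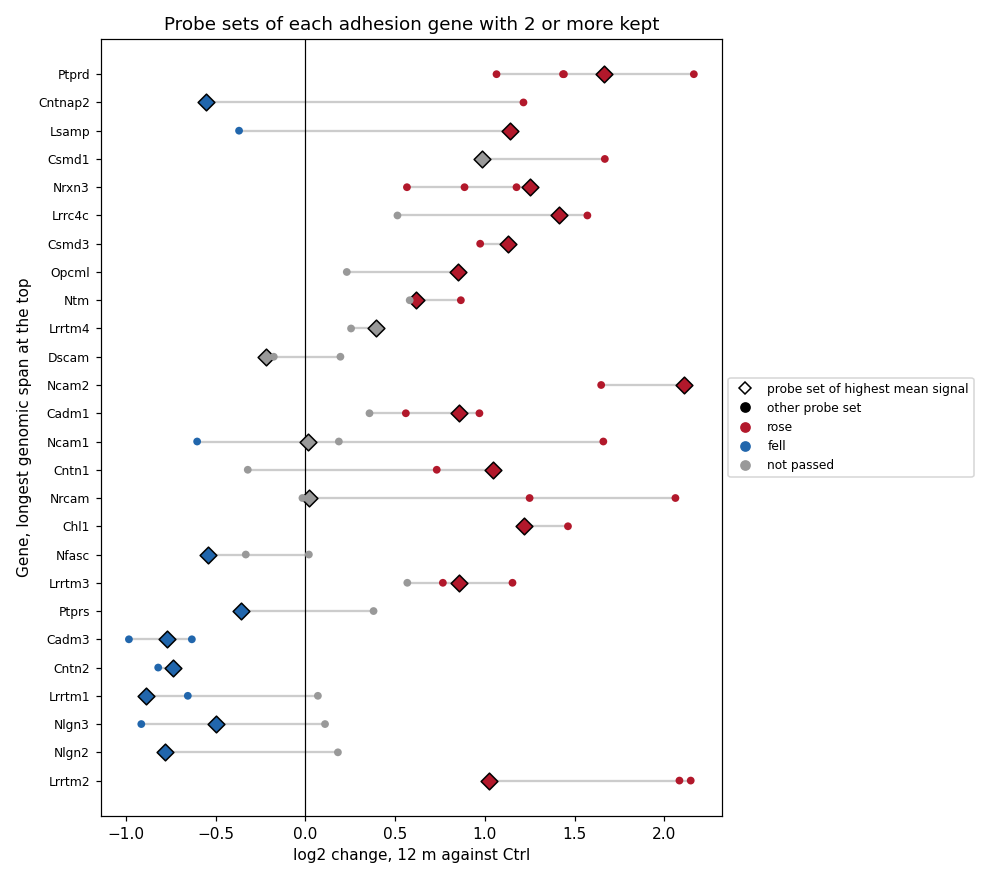
Log2 change in 12 m against Ctrl of every kept probe set of the 26 genes with at least 2, with a diamond for the probe set of highest mean signal and circles for the others. The probe sets of Ptprd all lie above 0, whereas those of Cntnap2, Lsamp and Ncam1 passed on both sides of 0.

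Cntnap2, the exception among the genes of widest span, was such a case. The probe set that stood for Cntnap2 had signals of 238.7, 246.7 and 213.2 in 12 m, 319.8, 313.2 and 288.7 in Ctrl28, and 334.2, 389.7 and 305.0 in Ctrl, so that 12 m lay below both controls. It fell by 0.55 relative to Ctrl (SE 0.11, limma adjusted p = 8.42e-04) and changed by -0.40 relative to Ctrl28 (adjusted p = 0.0243). Without array 3 of 12 m the change against Ctrl28 was not called (adjusted p = 0.0896 in limma), nor without array 2 of Ctrl28 (0.0543). Its other probe set had signals of 328.0, 323.8 and 327.7 in 12 m and 173.2, 132.3 and 121.5 in Ctrl, again without overlap but higher in 12 m, and rose by 1.21 ± 0.19 (adjusted p over probe sets 1.45e-04). The mean of both Cntnap2 probe sets gave 0.33 (adjusted p = 0.0321 in limma), the opposite sign.

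The Lsamp probe set of lower signal had 221.5, 232.7 and 173.1 in 12 m and 232.3, 268.8 and 307.9 in Ctrl. These arrays overlapped narrowly, and the change was -0.37 ± 0.14 (SE, limma, adjusted p over probe sets 0.0430), against 1.14 for the probe set of higher signal. For Ncam1, the pair of probe sets of high signal did not pass in 12 m, at 0.01 and 0.19. The third fell by 0.60, with signals of 125.5, 133.3 and 108.8 in 12 m and 185.3, 214.3 and 160.3 in Ctrl (adjusted p = 0.00334 in limma). The fourth Ncam1 probe set rose by 1.66, with 129.2, 117.7 and 76.9 in 12 m and 42.1, 26.4 and 33.4 in Ctrl (adjusted p = 8.17e-05 in limma). Nrcam had a similar spread. Its probe sets of high signal were at 0.02 and -0.02, and those of mean signals 74.8 and 50.8 rose by 1.25 and 2.06 (adjusted p = 1.09e-04 and 3.47e-04 in limma). Cntn1 had probe sets that passed in opposite directions in IH28D against Ctrl, at 0.78 and -0.61. Which transcripts these probe sets detect was not analysed here.

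**Figure D5:**
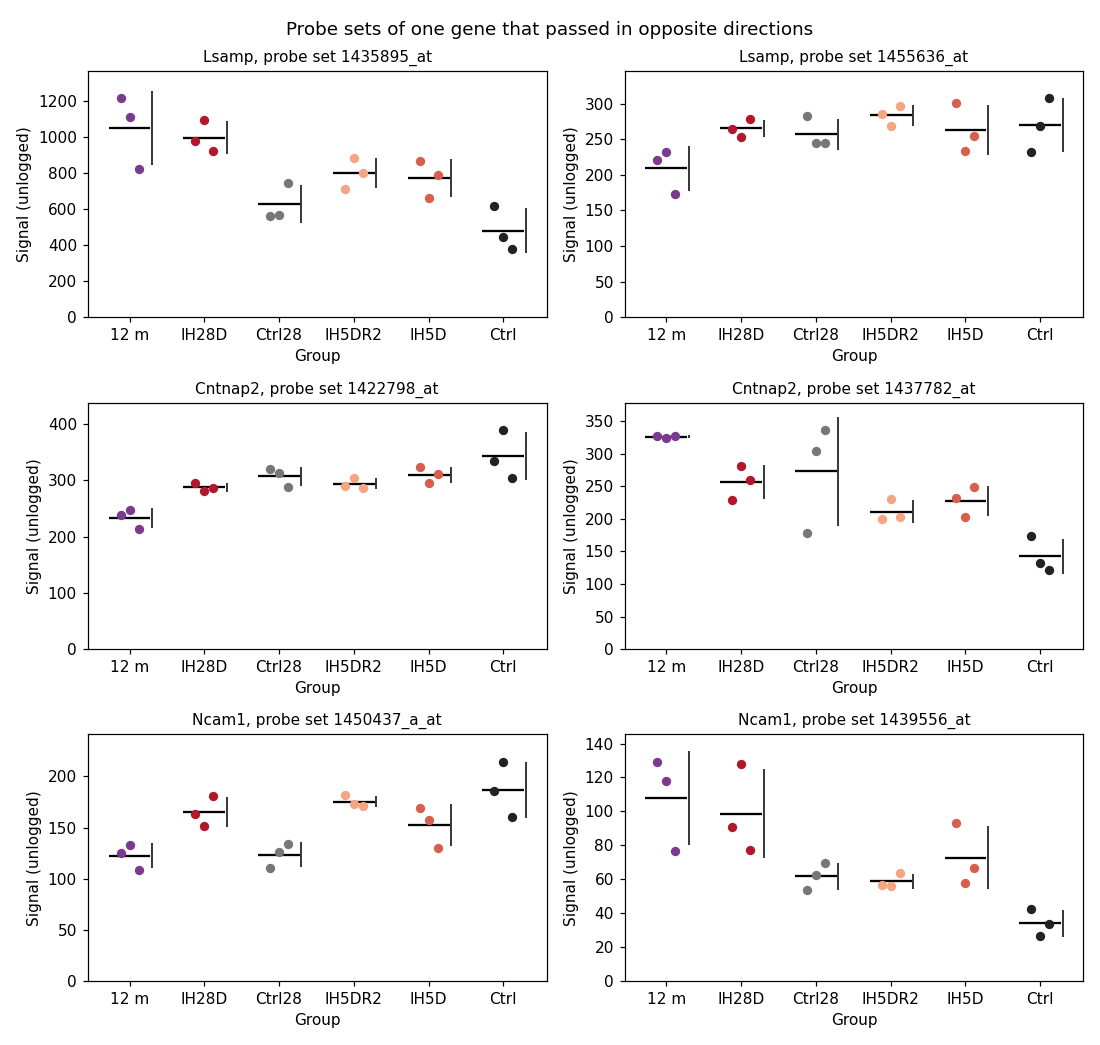
Unlogged signal on each array (points), group mean (horizontal bar) and SD (vertical line, n = 3) of the probe sets of Lsamp, Cntnap2 and Ncam1 that passed in opposite directions in 12 m against Ctrl, with all 6 groups from 12 m at the left to Ctrl at the right. For Cntnap2 the 12 m arrays are lowest in the left panel, at 213.2 to 246.7, and above the Ctrl arrays in the right panel, at 323.8 to 328.0.

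A list of 94 further adhesion genes, chosen from general knowledge but with earlier results of these data known, gave 80 that were tested. Of these 80, 30 rose and 14 fell in 12 m against Ctrl (median 0.11), 19 and 6 in IH28D against Ctrl (0.24), 8 and 0 in IH28D against Ctrl28 (0.16), 5 and 1 in IH5DR2 against Ctrl (0.165), and 6 and 0 in IH5D against Ctrl (0.17). In the same order, 55%, 31.2%, 10%, 7.5% and 7.5% of the 80 passed, against 53.3%, 33.3%, 8.49%, 5.61% and 6.52% of all genes. These 80 genes had a median span of 175.6 kb. Their median change in 12 m against Ctrl was 0.35 for the 21 genes over 500 kb and -0.25 for the 31 genes under 100 kb.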

How the data were processed

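RNA of whole mouse hippocampus had been hybridized to 18 Affymetrix arrays, 3 in each of 6 groups. The deposited values are log2 signals that the authors made with MAS5, which scales each array to one trimmed mean. The unlogged signals had a 2 percent trimmed mean of 100.03 to 100.04 on all arrays. The number of arrays limits the precision. All value columns were used.

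Of 45101 probe sets, 64 were controls, 34945 were annotated to 1 gene, 932 to several and 9160 to none. Probe sets of 1 gene with a mean unlogged signal above 20 were kept, 19919 in all, and that of highest mean signal stood for each of 11656 genes. Group means were fitted on the log2 scale with limma 3.58.1 (R 4.3.3) over all 18 arrays with a variance trend, which leaves 12 residual degrees of freedom, and p-values were adjusted by the Benjamini-Hochberg method over all genes (threshold 0.05). Calls of a rise or a fall rest on this adjusted p. There were 8 comparisons and 1 difference of comparisons. The script was tested on simulated data with 200 changed genes. Genomic spans and promoter windows came from RefSeq tables of GRCm38.p6.

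The named genes were, by rule, the 3 with the largest change in each direction among passing genes whose arrays did not overlap and whose higher group averaged at least 100, and in addition genes whose probe sets passed in opposite directions. All other genes were named within their families, and those given array by array beyond this rule were chosen after their values were seen. The members and lists were chosen with earlier results of these data known. Replicate numbers paired the arrays of IH5D and Ctrl only, where the deviations of same-numbered arrays from their group means correlated at 0.15, 0.29 and 0.24. Alternatives were another minimum, other probe set rules, centring, quantile normalization, separate fits, no trend, array weights, a covariate for the 3′ to 5′ gap, the replicate block, the methods' Welch test and each array left out.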

Additional observations from a re-analysis of the deposited data

Results flagged for a closer look

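The effects of 28 and 5 days of IHT, each against its own control, differed by a test of the difference itself in limma for 2 of the 32 genes. That is 6.25%, against 9.65% of all genes. For L1cam the log2 difference was 0.955 (adjusted p = 0.0388), and its changes, neither of which passed, were 0.45 in IH28D against Ctrl28 and -0.51 in IH5D against Ctrl. For Lrrtm2 it was -0.89 (adjusted p = 0.0460), and its changes were -0.22 in IH28D against Ctrl28, which did not pass, and 0.67 in IH5D against Ctrl, which did. Array 1 of Ctrl28, with the wide 3′ to 5′ gap, was the highest of its group for L1cam and the lowest for Lrrtm2, and without it the differences were 1.27 for L1cam and -1.16 for Lrrtm2 (adjusted p = 1.00e-04 and 7.67e-04 in limma). Without array 2 of Ctrl28 they were 0.77 for L1cam and -0.81 for Lrrtm2, and neither passed (0.101 and 0.105), as was the case for most other arrays of the 4 groups involved. With the mean of all kept probe sets the Lrrtm2 difference was -0.33 and did not pass (adjusted p = 0.702 in limma), since its other probe sets were at 0.25 and -0.34.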

How the results depend on the processing

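Most rises and falls in 12 m against Ctrl kept their direction and side of the threshold. The counts below, and those above with an array left out, are of adhesion genes only. The share of all genes called under each setting is not given beside them. A change of such a count therefore cannot be read as particular to the adhesion genes. With each array left out, 20 to 27 genes were called, and in 862 pairs of a called gene and a setting 801 kept the call, 59 lost it and 2 reversed. The reversals were those of Cntnap2 (0.33, adjusted p = 0.0321) and Ptprs (0.011, adjusted p = 0.962) when the mean of all kept probe sets stood for the gene. With each array left out, the other counts ran over 0 to 15 genes for IH5D against Ctrl (0 without array 2 or 3 of Ctrl or array 1 or 3 of IH5D, 15 without array 1 of Ctrl28), 0 to 14 for IH5DR2 against Ctrl (0 without any of its 3 arrays or without array 2 or 3 of Ctrl, 14 without array 1 of Ctrl28), 0 to 0 for IH5DR2 against IH5D, 0 to 8 for IH28D against Ctrl28 (0 without array 2 or 3 of IH28D, 8 without array 1 of Ctrl28), 9 to 18 for IH28D against Ctrl, 7 to 12 for 12 m against Ctrl28, 6 to 22 for Ctrl28 against Ctrl (22, 7 and 6 without arrays 1, 2 and 3 of Ctrl28) and 0 to 16 for the difference between 28 and 5 days (16 without array 1 of Ctrl28).

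In the order IH5D against Ctrl, IH5DR2 against Ctrl and IH28D against Ctrl28, the calls were 15, 14 and 7 with a covariate for the 3′ to 5′ gap, 18, 17 and 14 with array weights, 15, 16 and 0 with the compared groups alone, 3, 2 and 0 with the mean of all kept probe sets, and 2, 3 and 1 with no variance trend. IH28D against Ctrl28 had 1 call with all kept probe sets in the fit, with median centring, with quantile normalization and with no signal minimum. For Ctrl28 against Ctrl there were 23 calls with the gap, 25 with array weights and 3 with the groups alone, for IH28D against Ctrl 21 with array weights, and for 12 m against Ctrl28 2 with the groups alone. The difference had 18 calls with the gap, 19 with array weights, 1 with all kept probe sets or no signal minimum, and 0 with the groups alone or no trend. With both arrays that stood apart left out, an alternative chosen after seeing the data, there were 15 (13 higher, 2 lower), 16 (14 and 2) and 9 calls (7 and 2) in the same 3 comparisons, 21 in IH28D against Ctrl, 23 in Ctrl28 against Ctrl and 17 in the difference. The methods' Welch test on unlogged signals, without adjustment, gave 16 calls in IH5D and 16 in IH5DR2 against Ctrl, 3 in IH5DR2 against IH5D and 3 in Ctrl28 against Ctrl. After Benjamini-Hochberg adjustment it gave 9 in 12 m against Ctrl and 0 in IH5D, IH5DR2, IH28D and Ctrl28 against Ctrl and in IH28D and 12 m against Ctrl28.

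With the replicate block, IH5D against Ctrl had 4 calls, IH5DR2 against Ctrl 3 and IH28D against Ctrl28 1. The numbers paired the arrays in IH5D against Ctrl only. In the other comparisons the arrays share only a number, since 14 of the 24 correlations were at or under 0.1, with a range over all of -0.37 to 0.29.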

Other observations

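The mean log2 signal of the 32 genes on each array ran between 8.42 and 8.45 in 12 m, 8.26 and 8.44 in IH28D, 7.91 and 8.29 in Ctrl28, 8.21 and 8.27 in IH5DR2, 8.21 and 8.39 in IH5D, and 7.81 and 8.04 in Ctrl. The lowest Ctrl28 value was that of array 1, with the wide 3′ to 5′ gap.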
